A study of Homo sapiens with 11 samples.

Results

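The comparison described here is of MDA-MB-468 cells given tumour necrosis factor (TNF) together with apigenin against untreated cells of the same line. It rests on 6 of the 11 arrays of the series, chosen by their titles: 3 control arrays and 3 arrays of TNF plus apigenin. MDA-MB-468 is an established human cell line that was grown out of the pleural effusion of a breast carcinoma, and every group was of this 1 line, grown in the same high-glucose medium with serum and harvested at 24 h. The combined cells had received TNF at 40 ng/ml and apigenin at 40 µM, both prepared in a buffered salt solution (HBSS), and the control cells are listed as having had no treatment. The 3 arrays of cells given TNF alone and the 2 of cells given apigenin alone, at the same doses and time, serve below only to show where the combination differed from a single agent. The titles number the arrays of a group as triplicates without saying whether cultures were grown separately. The p-values thus describe how far arrays of 1 group spread, and that spread could be technical only.

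TNF is an inflammatory cytokine whose receptor activates the IKK kinases. These release the transcription factor NF-kB from its inhibitor IkB alpha, and NF-kB then switches on chemokines, adhesion molecules and its own inhibitors, among them IkB alpha and A20. Apigenin is a plant flavone, a flat polyphenol that inhibits several protein kinases and can bind the aryl hydrocarbon receptor. MDA-MB-468 cells are epithelial, lack oestrogen and progesterone receptors, and carry very many copies of the epidermal growth factor receptor gene.

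Levels are given on the log2 scale of the deposited values, where 1 unit is a doubling, and 15865 genes were tested with limma over all 11 arrays. The median of all probe sets was 2.53, and a fold is given only where both group means lay at or above 3.03. Arrays of a group correlated at 0.9695 to 0.987. Array apigenin 1 had a lower median over the tested genes (3.89) than the other 10 arrays (4.08 to 4.32), and the median difference of all genes between the combined and the apigenin arrays was 0.162. All 8 markers of breast carcinoma epithelium lay above 3.03 in these cells. Of the markers with a probe set of their own, 3 of 10 for macrophages, 2 of 9 for T and B cells, 1 of 8 for fibroblasts and 3 of 9 for endothelium did so. Among defining markers, PTPRC, CD163, DCN and VWF lay below 2.53 in both groups.

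With TNF plus apigenin, at an adjusted p under 0.05, 165 genes were higher than in control (1.04% of those tested) and 282 were lower (1.78%), which is 447 genes or 2.82% in all. Of the gene lists, 9 of 26 NF-kB targets and 6 of 16 chemokine genes rose. Falls passed the test for 11 of 23 luminal and secretory genes, 8 of 20 keratin and S100 genes, 2 of 13 mitotic kinesins and 5 of 39 other mitosis genes. The median change of the higher genes was 1.02, and that of the lower genes was -0.96. A change of at least 1 was reached by 91 of the higher and 122 of the lower genes. The higher genes started low, with a median control level of 3.95 against 5.86 for the lower genes, and 41 of them had a control mean under 3.03. As a background for the lists, 7.15% of all genes lay above control and 8.79% below it at an unadjusted p under 0.05 (1135 and 1394 genes).

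Many of these calls depended on a single array. In 11 further fits, each without 1 array, 50 of the higher and 98 of the lower genes passed every time. The total was 211 without control 1, 270 without control 3, 206 without TNF plus apigenin 2 and 258 without TNF plus apigenin 3. No called gene was called in the opposite direction in any of the alternative settings tried. Below, a call that was lost in a fit without 1 array is said to be so.

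**Figure D1:**
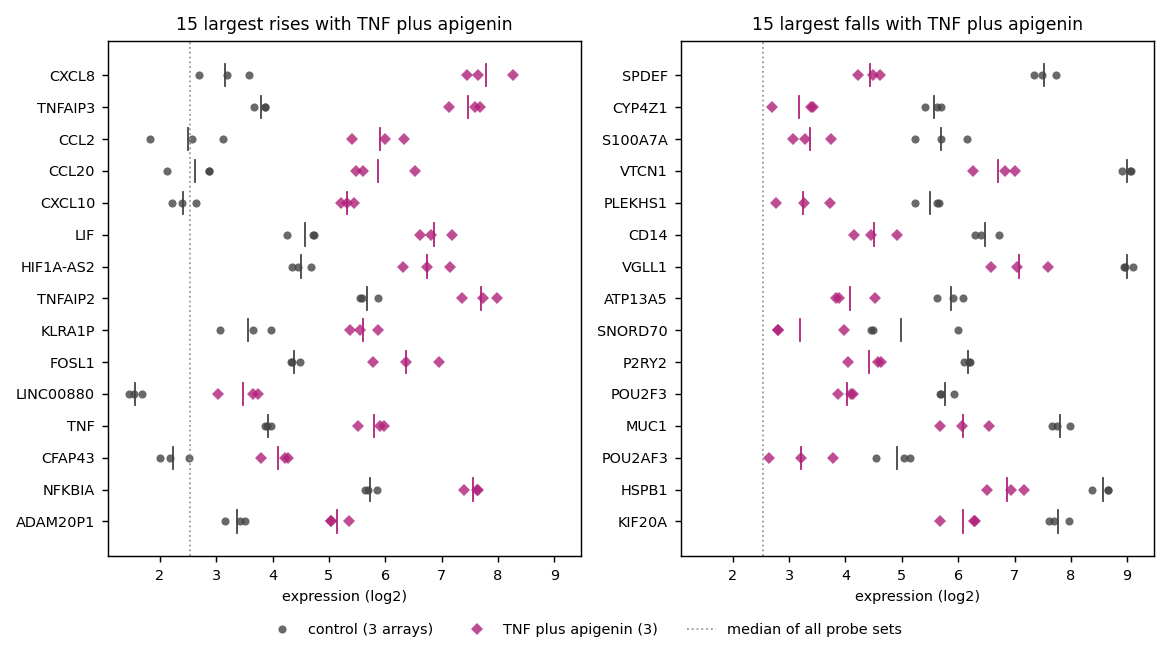
Expression (log2) of the 15 genes with the largest rises (left) and the 15 with the largest falls (right) among called genes, with 1 symbol per array for control (circles) and TNF plus apigenin (diamonds), a bar at each group mean, and a dotted line at the median of all probe sets, 2.53. The rule for choosing these genes required that the 3 combined arrays lie to one side of the 3 control arrays. CXCL8 and SPDEF show the widest gaps of their panels.

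CXCL8, which encodes interleukin 8, the chemokine that draws neutrophils, rose furthest. Its levels were 3.58, 3.20 and 2.69 on the control arrays and 7.46, 8.27 and 7.64 on the combined arrays. The 2 groups lay more than 3 units apart at their closest, and the rise was 4.64 ± 0.24 (SE) or 24.9-fold (adjusted p = 7.15e-08). TNFAIP3, the gene of the NF-kB inhibitor A20, measured 3.86, 3.86 and 3.68 in control and 7.68, 7.60 and 7.14 in the combination. That is a rise of 3.67 ± 0.19 or 12.7-fold (adjusted p = 7.15e-08), with tight groups far apart.

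Of 30 genes listed as NF-kB targets and feedback inhibitors, 27 had a probe set of their own and 26 were tested. 9 rose (34.6%, against 1.04% of all genes), 0 fell and 17 did not pass, and the list median was 0.69 against -0.025 over all genes. Without TNF plus apigenin 2 the number was 8, since CYLD then missed the threshold (1.27, adjusted p = 0.0599). Besides TNFAIP3 the feedback genes that rose were NFKBIA, which encodes IkB alpha, CYLD, which encodes a deubiquitinase that restrains the pathway, and NFKB2, which encodes the p100 precursor. NFKBIA read 5.65, 5.85 and 5.69 in control and 7.63, 7.65 and 7.40 with both agents, a rise of 1.83 ± 0.20 or 3.55-fold (adjusted p = 0.000187). The combined arrays were all above the control arrays by more than 1 unit. CYLD rose by 1.41 ± 0.27 and NFKB2 by 1.10 ± 0.20.

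The effector genes of that list that rose were TNFAIP2 (4.09-fold), TNF itself (3.69-fold), the adhesion receptor gene ICAM1 (2.82-fold), CD83, a surface marker of activated immune cells (a log2 rise of 1.20 ± 0.22), and PTX3, which encodes the soluble pattern receptor pentraxin 3 (1.08 ± 0.20). PTX3 came from a control mean of 2.09, below the median of the probe sets. TNF measured 3.90, 3.98 and 3.87 in control and 5.98, 5.91 and 5.52 in the combination, without overlap. Among the 17 that did not pass were NFKBIE at 0.99 (adjusted p = 0.0556), NFKB1 at 0.70 (adjusted p = 0.0663) and RELB at 0.92 (adjusted p = 0.0739). RELA, the transactivating subunit, was at -0.02 and BCL3, a nuclear relative of the IkB proteins, at -0.59 (adjusted p = 0.123).

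Of 22 listed chemokines, all with a probe set, 16 were tested. 6 rose (CXCL8, CCL2, CCL20, CXCL10, CXCL1 and CXCL2), 1 fell (CXCL17) and 9 did not pass, with a median of 0.31. The share that rose was 37.5%, against 1.04% of all genes, and the share that fell was 6.25%, against 1.78%. CCL2, which attracts monocytes, was at 2.57, 1.83 and 3.12 in control and at 6.33, 6.0 and 5.41 in the combination. CCL20, which attracts cells that carry the receptor CCR6, went from 2.87, 2.88 and 2.12 to 5.49, 6.52 and 5.60. CXCL10, which attracts activated T cells, went from 2.64, 2.21 and 2.40 to 5.21, 5.44 and 5.32. All 3 genes started at the level of the median probe set and ended well above it on every combined array, by 3.41 ± 0.29, 3.25 ± 0.35 and 2.91 ± 0.18 (adjusted p = 1.92e-05, 0.000131 and 4.8e-07).

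The neutrophil chemokines CXCL1 and CXCL2 rose less, by 1.48 ± 0.28 and 1.40 ± 0.32. The call of CXCL1 was lost without TNF plus apigenin 2 (1.41, adjusted p = 0.0557). That of CXCL2 was lost without control 2 (1.02, adjusted p = 0.104), control 3 (1.37, adjusted p = 0.0919), TNF plus apigenin 2 (1.12, adjusted p = 0.153) or TNF plus apigenin 3 (1.57, adjusted p = 0.0546). CXCL17, a chemokine of mucosal surfaces, fell by 0.94 on the log2 scale, a call lost without control 2 (-0.90, adjusted p = 0.0529), control 3 (-0.92, adjusted p = 0.0614) or TNF plus apigenin 3 (-0.83, adjusted p = 0.074).

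Some of these genes share a short NF-kB type sequence before their start. The following 60-base windows are from RefSeq promoters (assembly GRCh38.p14) and are shown because they carry, in capitals, the letters GGAANTTCC, where N is any base. The motif reads the same on both strands, and in these windows the middle base is T or A.
CXCL8, chr4:73740452-73740511, plus strand: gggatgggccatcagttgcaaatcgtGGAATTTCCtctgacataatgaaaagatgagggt
CXCL1, chr4:73869289-73869348, plus strand: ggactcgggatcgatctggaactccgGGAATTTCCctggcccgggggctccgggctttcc
CXCL2, chr4:74099239-74099298, minus strand: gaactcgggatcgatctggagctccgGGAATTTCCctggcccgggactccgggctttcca
CXCL10, chr4:76023640-76023699, minus strand: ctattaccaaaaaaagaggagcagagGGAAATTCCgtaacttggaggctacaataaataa
ICAM1, chr19:10270908-10270967, plus strand: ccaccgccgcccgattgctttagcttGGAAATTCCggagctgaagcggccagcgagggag
NFKBIA, chr14:35404797-35404856, minus strand: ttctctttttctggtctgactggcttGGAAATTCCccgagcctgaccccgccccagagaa

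The windows of CXCL1 and CXCL2 are nearly alike over their whole length, with the motif 78 and 77 bases before the transcript start. In CXCL8 it lies 91 and in NFKBIA 81 bases before the start. A promoter of 300 bases (250 before to 50 after the start) could be read for 11717 of the tested genes, and 1.05% of these hold the motif. It is in 7.87% of the 127 promoters of genes called higher and in 0.472% of the 212 of genes called lower. Among NF-kB targets and chemokines that rose it is in 6 of 14. Over all tested members, risen or not, it is in 6 of 23 NF-kB target and 6 of 12 chemokine promoters. Holders that did not pass include MAP3K8, NFKB1, NFKBIZ, REL, CXCL3 and CXCL11. This narrow motif was taken up after a wider one (3 Gs and, after 5 bases of any kind, 2 Cs, on either strand) had been found in 72.3% of all promoters, 62.2% of those of higher genes and 64.2% of those of lower genes. The shares are descriptions without a test, and a match is not evidence of binding.

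On these NF-kB targets and chemokines the combination differed from TNF alone at 2 chemokines, CCL2 and CXCL10. The 2 comparisons share the combined arrays, so their values are set side by side. Over all genes, 61 were higher (0.384%) and 108 lower (0.681%) with the combination than with TNF, and 84 higher (0.529%) and 7 lower (0.0441%) than with apigenin. CCL2 was at 8.07, 8.60 and 8.48 with TNF alone, above every combined array, and the difference of combination minus TNF was -2.47 ± 0.29 (adjusted p = 0.000719). CXCL10 was at 7.27, 7.56 and 7.16 with TNF alone, a difference of -2.01 ± 0.18 (adjusted p = 8.63e-05). These 2 genes kept a rise over control while lying between control and TNF.

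The other leading genes did not differ from TNF alone beyond the test. CXCL8 was at 7.81, 7.92 and 7.84 with TNF, and the combination minus TNF was -0.07 with a 95% interval from -0.58 to 0.45 (adjusted p = 0.968). TNFAIP3 differed by 0.28 (-0.14 to 0.69), NFKBIA by 0.43 (adjusted p = 0.457), and CCL20 by 0.73 (adjusted p = 0.457). TNFAIP2 stood at -0.02 (adjusted p = 0.989) and the adhesion receptor ICAM1 at -0.17 (adjusted p = 0.844). Of the 26 NF-kB targets, limma called 0 in either direction against TNF, with 2 above and 1 below at an unadjusted p under 0.05 (over all genes, 5.93% and 5.2%). A list median of 0.11 stood against 0.015 over all genes. Against apigenin alone 9 of the 26 were higher and 0 lower.

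**Figure D2:**
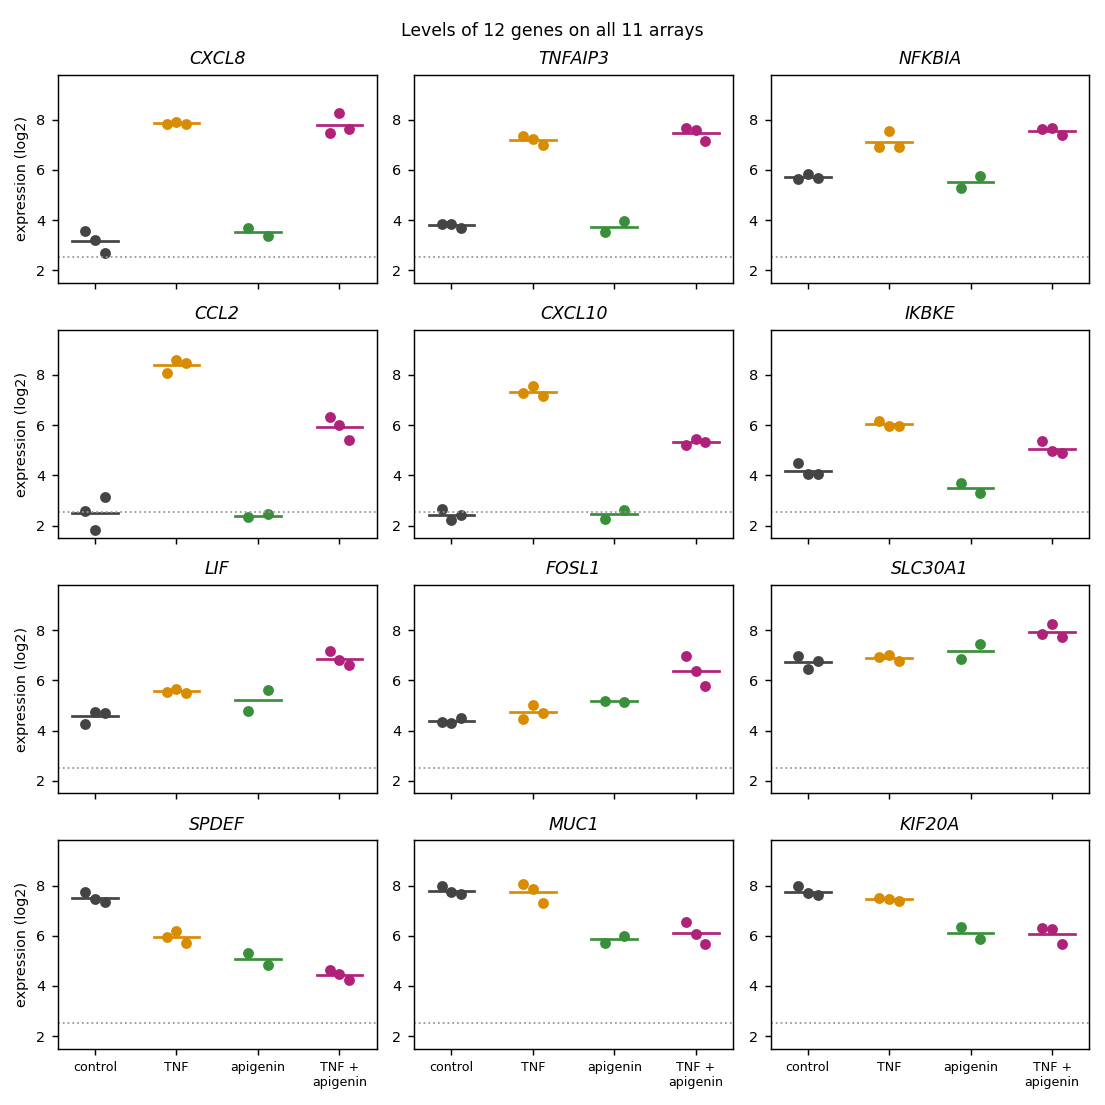
Expression (log2) of 12 genes on all 11 arrays, 1 point per array with a bar at each group mean, for control (3 arrays), TNF (3), apigenin (2) and TNF plus apigenin (3), with a dotted line at the median of all probe sets, 2.53. CXCL8, TNFAIP3 and NFKBIA are as high with both agents as with TNF, CCL2, CXCL10 and IKBKE lie between control and TNF, LIF, FOSL1 and SLC30A1 are highest with both, and MUC1 and KIF20A are low in both groups given apigenin.

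In the receptor pathway itself, 3 of 19 tested genes for IKK kinases and TNF receptor components rose (15.8%, against 1.04% of all genes) and 0 fell, with a median of 0.22. They were RIPK2, a kinase of innate receptor signalling (1.12 ± 0.22), TRAF3, an adaptor that restrains the alternative NF-kB pathway (0.99 ± 0.24), and IKBKE, the gene of the kinase IKK epsilon (0.88 ± 0.19). IKBKE measured 4.48, 4.05 and 4.05 in control, 6.15, 5.97 and 5.97 with TNF and 5.35, 4.97 and 4.89 with both agents. The combined arrays lay between the other groups without touching either, and against TNF the difference was -0.96 (adjusted p = 0.0216). Without control 2 or without TNF plus apigenin 2, 0 of the 3 passed against control: RIPK2 was at 0.93 (adjusted p = 0.0501) and 0.98 (adjusted p = 0.0742), TRAF3 at 0.99 (adjusted p = 0.0971) and 0.91 (adjusted p = 0.168), and IKBKE at 0.81 (adjusted p = 0.0737) and 0.93 (adjusted p = 0.0629). IKBKE was also lost without control 3 (0.80) or TNF plus apigenin 1 (0.74), and TRAF3 without control 1 (1.08), control 3 (0.91), TNF 3 (0.99) or TNF plus apigenin 1 (0.83). IKBKB and CHUK, the catalytic kinases of the classical complex, were at 0.06 and 0.71 (adjusted p = 0.924 and 0.235).

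Of 17 inflammatory cytokines and growth factors tested, LIF and TNFSF15 rose (11.8%, against 1.04% of all genes) and TNFSF10 fell (5.88%, against 1.78%). The other 14 did not pass. IL6, IL1A and IL1B lay below the median of the probe sets in both groups and were not tested. LIF, an interleukin 6 family cytokine, was at 4.26, 4.73 and 4.72 in control and at 7.18, 6.82 and 6.61 with both agents, a rise of 2.30 ± 0.23 or 4.92-fold (adjusted p = 0.000113). With TNF alone it was at 5.55, 5.66 and 5.49 and with apigenin alone at 4.79 and 5.63, all below the combined arrays. The combination exceeded TNF by 1.30 (adjusted p = 0.0104) and apigenin by 1.66 (adjusted p = 0.00653). TNFSF10, the gene of the death ligand TRAIL, moved the other way, from 8.44, 8.51 and 8.31 to 7.31, 7.22 and 6.82, a fall of 2.47-fold (adjusted p = 0.00105). The combination lay below TNF alone (log2 difference -1.13, adjusted p = 0.00564) and did not pass against apigenin alone (0.02, adjusted p = 0.974). Of 19 cytokine receptors, IFNGR1 for interferon gamma rose by 0.82 ± 0.16 (5.26% of the list, against 1.04% of all genes). Its call was lost without control 2 (0.74, adjusted p = 0.0515) or TNF plus apigenin 2 (0.71, adjusted p = 0.0827).

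LIF belonged to a set of genes that were higher with both agents than with TNF alone. FOSL1, which encodes the AP-1 subunit Fra-1, read 4.34, 4.32 and 4.49 in control and 6.96, 6.37 and 5.78 in the combination, a rise of 1.99 ± 0.25 or 3.98-fold (adjusted p = 0.000445). It exceeded TNF by 1.64 (adjusted p = 0.00383) and apigenin by 1.20, which missed the threshold (adjusted p = 0.0671). The antisense gene HIF1A-AS2 went from 4.46, 4.34 and 4.69 to 6.74, 7.15 and 6.31 (4.73-fold) and exceeded TNF by 2.08 (adjusted p = 0.0114). Its difference from apigenin, 1.65, did not pass (adjusted p = 0.0825). Whether its probe set also reads transcripts of the opposite strand was not tested. SLC30A1, a zinc exporter gene, rose 2.31-fold and exceeded TNF by 1.05 (adjusted p = 0.0208), but did not pass against apigenin (0.78, adjusted p = 0.136).

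Both LINC00880 and CFAP43 lay below 2.53 in control. LINC00880, a long non-coding RNA gene, went from 1.46, 1.69 and 1.54 to 3.65, 3.75 and 3.03, and CFAP43, a gene of cilia and flagella, from 2.18, 2.51 and 2.0 to 4.27, 4.23 and 3.80. Both stayed at control levels with TNF alone (1.39 to 1.72 and 2.13 to 2.52) and were between with apigenin alone. LINC00880 reached 2.53 on the combined arrays only. It was tested only through the group in which it was high, so its rise is a description. The pseudogenes KLRA1P (4.10-fold up) and ADAM20P1 (3.42-fold up) exceeded TNF by 1.75 and 2.26 (adjusted p = 0.00709 and 0.000719) and did not pass against apigenin (adjusted p = 0.282 and 0.308).

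Of 43 listed interferon-stimulated genes 38 were tested. GBP1, an interferon-induced GTPase, rose by 1.23 (2.63% of the list, against 1.04% of all genes). OAS1, SAMD9, IFI44L, IFI44 and IRF9 fell by 0.85 to 0.95 on the log2 scale (13.2%, against 1.78%). The other 32 did not pass and the median was -0.23. Without adjustment of p, 5 lay above (13.2%, against 7.15% of all genes) and 10 below control (26.3%, against 8.79%). OAS1, an antiviral enzyme, went from 4.18, 4.06 and 4.26 to 3.32, 3.17 and 3.17 and was called in all 11 fits. The other 4 falls were lost together without control 1, control 3, TNF plus apigenin 2 or TNF plus apigenin 3, which left 1. The call of GBP1 was lost without TNF plus apigenin 1 (1.22, adjusted p = 0.0549) or TNF plus apigenin 2 (1.13, adjusted p = 0.0963). IFI44L was at 5.02, 4.45 and 4.24 with TNF alone, above control, and at 2.46, 2.56 and 2.57 with both agents, below control, a log2 difference between those groups of -2.04 (adjusted p = 0.000279). Against apigenin alone it did not pass (0.43, adjusted p = 0.393). The interferon motif (GAAA, any 2 bases, GAAA, on either strand) is in 64.5% of the 31 promoters of this list that could be read, in 2.68% of all, in 3.15% of those of higher genes and in 3.3% of those of lower genes. Of 18 antigen presentation genes limma called 0, with 2 above control when p under 0.05 is taken without adjustment (11.1%, against 7.15% of all genes).

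**Figure D3:**
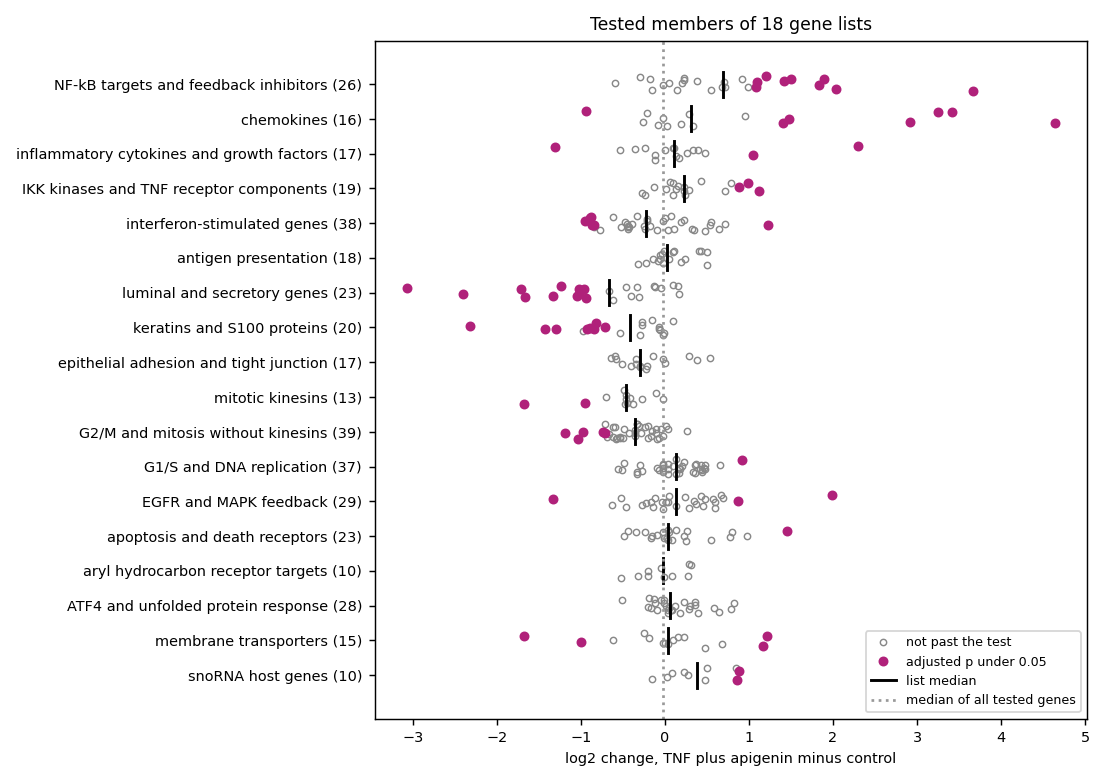
Log2 change of TNF plus apigenin minus control for every tested member of 18 gene lists, 1 circle per gene with the number of genes in brackets, filled where the adjusted p was under 0.05, with a bar at the list median and a dotted line at the median of all tested genes, -0.025. NF-kB targets and chemokines reach furthest to the right and luminal and secretory genes and keratins furthest to the left, while most members of most lists are open circles near the dotted line.

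SPDEF and CYP4Z1, the genes that fell furthest of all called, are in the list of luminal and secretory epithelial genes. Of 28 listed genes 23 were tested. 11 fell (47.8%, against 1.78% of all genes), 0 rose and 12 did not pass, with a median of -0.67. SPDEF, a transcription factor of luminal and mucus-producing cells, was at 7.73, 7.48 and 7.34 in control and at 4.62, 4.49 and 4.22 with both agents, a fall of 8.42-fold (log2 change -3.07 ± 0.20, adjusted p = 4.8e-07). The groups were tight and far apart. Single agents gave 5.96, 6.19 and 5.72 (TNF) and 5.31 and 4.85 (apigenin). The combination lay below TNF by a log2 difference of -1.51 (adjusted p = 0.00144) and below apigenin by -0.63, which did not pass (adjusted p = 0.196).

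CYP4Z1, a cytochrome P450 of mammary tissue, went from 5.62, 5.69 and 5.41 to 3.38, 3.42 and 2.70, a fall of 5.29-fold (adjusted p = 0.00163). MUC1, the gene of a cell-surface mucin, went from 7.99, 7.75 and 7.67 to 6.55, 6.06 and 5.67, 3.27-fold down (adjusted p = 0.00106). MUC1 was at 8.05, 7.85 and 7.31 with TNF alone and at 5.73 and 5.98 with apigenin alone, so the combined arrays sat with the apigenin arrays and 1.64 below TNF (log2 difference -1.64, adjusted p = 0.00312). CLCA2, which modulates chloride conductance, showed another order, at 4.92 to 5.27 with TNF, 4.65 and 4.93 with apigenin and 4.94 to 5.38 with both, against 6.75 to 6.90 in control. The arrays of all 3 treatments lay below control, and the combination passed the test against neither single agent (0.10, adjusted p = 0.907, and 0.35, adjusted p = 0.412).

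GATA3, a transcription factor of luminal identity, fell 2.36-fold (6.33, 6.11 and 6.50 against 5.61, 5.04 and 4.58), MUC15 2.51-fold, CYP4X1 by 1.05 and STAC2 by 1.02 on the log2 scale. Falls of SCGB2A2, the gene of mammaglobin A (log2 change -1.03), ANPEP (-0.96) and CYP4B1 (-0.94) were lost in 4, 7 and 5 of the 11 fits. Without control 1, control 3, TNF plus apigenin 2 or TNF plus apigenin 3 the list count was 8. FOXA1 and XBP1, regulators of luminal and secretory cells, were at -0.12 and -0.05 (adjusted p = 0.854 and 0.922). ESR1 and PGR, the oestrogen and progesterone receptor genes, lay below 2.53 in both groups.

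Outside that list the leading falls included other epithelial genes. VTCN1, which encodes the immune checkpoint ligand B7-H4, went from 9.06, 8.90 and 9.05 to 7.01, 6.83 and 6.27, a fall of 4.92-fold (adjusted p = 1.92e-05). It lay between at 7.95, 8.22 and 8.02 with TNF and at 7.45 and 7.74 with apigenin. The combination was below TNF by -1.36 (adjusted p = 0.00312) and below apigenin by -0.89, which did not pass (adjusted p = 0.0825). VGLL1, a cofactor of TEAD transcription factors, fell 3.78-fold, PLEKHS1 4.78-fold and the transport ATPase gene ATP13A5 3.45-fold. Each was below TNF alone as well, by log2 differences of -1.16, -1.66 and -1.33 (adjusted p = 0.017, 0.00336 and 0.00564). Against apigenin alone none of them passed, at -0.21, 0.18 and -0.74 (adjusted p = 0.713, 0.789 and 0.17). POU2F3, a transcription factor of tuft cells, fell 3.32-fold and its coactivator gene POU2AF3 3.25-fold. P2RY2, a receptor for extracellular nucleotides, fell 3.39-fold.

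Of 20 keratin and S100 genes tested, 8 fell (40.0%, against 1.78% of all genes), 0 rose and 12 did not pass, with a median of -0.42. S100A7A, a relative of the skin protein psoriasin, went from 5.69, 5.24 and 6.16 to 3.75, 3.07 and 3.29, a fall of 5.01-fold (adjusted p = 0.000119). The combination was below TNF by -1.37 (adjusted p = 0.0114) and did not pass against apigenin (0.05, adjusted p = 0.956). KRT15 fell 2.69-fold and S100A14 1.90-fold, both in all 11 fits. KRT4 fell 2.46-fold, lost without TNF plus apigenin 2 (-1.17, adjusted p = 0.0516). The other 4 were KRT19, S100A7, S100A8 and KRT23, at -0.72 to -0.89, and without control 1, control 3, TNF plus apigenin 2 or TNF plus apigenin 3 the list count was 4. The basal keratin gene KRT5 was at -0.01 and S100A10 at 0.09.

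Of the 8 epithelial markers KRT19 and CD24 fell, by 0.82 and 0.78 on the log2 scale, and EPCAM and EGFR were at 0.00 and -0.04. The mean of the 8 was 7.74 to 7.89 on the control arrays and 7.30 to 7.53 on the combined arrays, without overlap. Both falls were lost without control 1, control 3, TNF plus apigenin 2 or TNF plus apigenin 3. In a bulk sample fewer cells of a kind and less RNA per cell cannot be told apart. Of 17 genes of epithelial adhesion and tight junctions limma called 0, with a median of -0.30. When p under 0.05 is taken without adjustment, 1 lay above (5.88%, against 7.15% of all genes) and 5 below control (29.4%, against 8.79%). CD14, a co-receptor for bacterial lipopolysaccharide and a marker of macrophages, fell 3.91-fold from 6.30, 6.72 and 6.40 to 4.91, 4.45 and 4.15. Of the 10 macrophage markers 3 lay above 3.03 in the mean of all arrays, while CD163, LYZ and MRC1 lay below 2.53 in both groups. The mean of that marker list was 3.05 to 3.23 in control and 2.92 to 3.07 in the combination.

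KIF20A, a kinesin of the spindle midzone, was at 7.97, 7.70 and 7.62 in control and at 6.30, 6.28 and 5.67 with both agents, a fall of 3.20-fold (log2 change -1.68 ± 0.20, adjusted p = 0.000336). It was at 7.50, 7.48 and 7.39 with TNF alone and at 6.33 and 5.87 with apigenin alone. The combination lay with the apigenin arrays (log2 difference -0.01, adjusted p = 0.988) and below TNF by -1.37 (adjusted p = 0.00359). Of 13 mitotic kinesins tested 2 fell (KIF20A and CENPE; 15.4%, against 1.78% of all genes), 0 rose and 11 did not pass, and the median was -0.46.

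Of 39 other G2/M and mitosis genes, PLK1, a mitotic kinase, CDC20, an activator of the anaphase-promoting complex, CCNB1, the gene of cyclin B1, NEK2, a kinase of the centrosome, and TOP2A, a topoisomerase that untangles chromosomes, fell (12.8%, against 1.78% of all genes). Of the 39 genes 0 rose, 34 did not pass, the median was -0.36, and 19 lay below (48.7%, against 8.79% of all genes) and 0 above control when p under 0.05 is taken without adjustment. The median levels of the 39 overlapped, at 7.30, 6.89 and 7.19 in control and 6.93, 6.79 and 6.55 with both agents. PLK1 went from 7.87, 7.79 and 7.91 to 7.01, 6.75 and 6.26, 2.28-fold down (adjusted p = 0.00341). CDC20 fell 2.06-fold and CCNB1 1.98-fold. These 3 and KIF20A were called in all 11 fits, while CENPE, NEK2 and TOP2A lost the call in 6, 8 and 9 of them (without control 1 they were at -0.81, -0.64 and -0.62). The number called in this list was 15 after quantile normalization.

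Of 37 genes of the G1 and S phases tested, CCND1, which encodes cyclin D1, rose by 0.91 ± 0.20 (2.7%, against 1.04% of all genes). The other 36 did not pass, and the list median was 0.13. The call of CCND1 was lost without control 2 (0.75), control 3 (0.95), TNF plus apigenin 1 (0.87) or TNF plus apigenin 2 (0.84). PCNA, the sliding clamp of DNA replication, was at 0.46 (adjusted p = 0.271) and MCM2, of the replicative helicase, at 0.03. Of 13 homologous recombination and Fanconi anemia genes limma called 0, with a median of 0.34. When p under 0.05 is taken without adjustment, 2 lay above control (15.4%, against 7.15% of all genes). Of 10 histone genes H1-1 fell by 0.69 on the log2 scale (10.0%, against 1.78% of all genes), a call lost in 7 of the 11 fits.

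Promoters of the mitosis genes that were called in all 11 fits are shown for an element that they hold, the cell cycle homology region. Its letters, TTTGAA or TTTAAA on either strand, are in capitals.
KIF20A, chr5:138179044-138179103, plus strand: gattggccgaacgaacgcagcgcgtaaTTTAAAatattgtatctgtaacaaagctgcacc
PLK1, chr16:23678833-23678892, plus strand: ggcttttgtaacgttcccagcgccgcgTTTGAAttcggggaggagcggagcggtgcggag
CDC20, chr1:43358889-43358948, plus strand: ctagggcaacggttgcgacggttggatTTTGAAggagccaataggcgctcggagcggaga
CCNB1, chr5:69167093-69167152, plus strand: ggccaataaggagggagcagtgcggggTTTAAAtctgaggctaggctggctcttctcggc

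These letters are in 12 of 13 kinesin promoters (92.3%), in 23 of the 31 promoters of the G2/M list that could be read (74.2%) and in 16.3% of all promoters of tested genes. Among genes called higher the share was 23.6% and among genes called lower 22.6%. Of the 7 mitosis genes called lower whose promoter could be read, 6 hold the letters and NEK2 does not. The CCAAT box, CCAAT on either strand, was in 76.9% of the kinesin, 74.2% of the G2/M and 35.9% of all promoters. Both elements are thus frequent in the lists as a whole, whose members were mostly not past the test. Here too a match is not evidence of binding.

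Of 29 EGFR and MAPK feedback genes, FOSL1 and ERRFI1, which encodes an inhibitor of EGFR, rose (6.9%, against 1.04% of all genes). FOS fell (3.45%, against 1.78%) and 26 did not pass, with a list median of 0.13. FOS went from 6.35, 6.15 and 6.59 to 5.50, 4.86 and 4.74, a fall of 2.52-fold (adjusted p = 0.00266), so the 2 partners of JUN moved in opposite directions. ERRFI1 rose by 0.87 ± 0.21, a call lost without control 1 (0.89), control 2 (0.72), TNF plus apigenin 1 (0.92), TNF plus apigenin 2 (0.71) or TNF plus apigenin 3 (0.96). JUN was at -0.14, MYC at 0.05 and EGFR at -0.04 (adjusted p = 0.809, 0.927 and 0.944).

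Of 23 apoptosis and death receptor genes, PMAIP1, which encodes the BCL2 antagonist NOXA, rose (4.35%, against 1.04% of all genes) and 22 did not pass. It was at 5.21, 4.76 and 4.99 in control and at 6.26, 6.90 and 6.17 with both agents, 2.74-fold up (adjusted p = 0.00175). TNFRSF10B, a receptor for TRAIL, was at 0.80 (adjusted p = 0.112) and FAS at 0.77 (adjusted p = 0.148). HSPB1, a small heat shock protein gene, fell 3.24-fold from 8.38, 8.66 and 8.66 to 7.16, 6.93 and 6.52. It was the only fall among 10 heat shock genes (10.0%, against 1.78% of all genes), of which 9 did not pass. AKR1B10, an aldo-keto reductase, fell 2.69-fold among 16 NRF2 antioxidant genes (6.25%, against 1.78% of all genes), of which 15 did not pass. Of 28 ATF4 and unfolded protein response genes limma called 0. When p under 0.05 is taken without adjustment, 5 lay above (17.9%, against 7.15% of all genes) and 1 below control (3.57%, against 8.79%).

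The aryl hydrocarbon receptor targets CYP1A1 and CYP1B1 did not pass the test against control. CYP1A1 was at 2.84, 2.73 and 2.33 in control, 3.19, 2.96 and 2.55 with both agents and 4.61 and 4.11 with apigenin alone. The combined arrays overlapped control (a change of 0.27, adjusted p = 0.63) and lay below apigenin by a log2 difference of -1.46 (adjusted p = 0.0146). CYP1B1 was at 7.08, 6.78 and 6.91 in control, 6.89, 7.19 and 6.94 with both and 7.91 and 7.89 with apigenin, a change of 0.08 from control (adjusted p = 0.869) and of -0.89 from apigenin (adjusted p = 0.0419). AHR itself was at 0.29 (adjusted p = 0.462). Of the 10 genes of this list limma called 0 against control. At an unadjusted p under 0.05, 0 lay above and 1 below (10.0%, against 8.79% of all genes). Array apigenin 1 stood apart, and apigenin has 2 arrays.

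Among 15 membrane transporters 2 rose and 2 fell (13.3% each, against 1.04% and 1.78% of all genes). ABCC4, an efflux pump, rose from 4.29, 3.98 and 4.36 to 5.28, 5.59 and 5.29 (2.25-fold), yet lay below TNF alone by -1.04 (adjusted p = 0.00709). SLC15A2, a peptide transporter, fell 3.20-fold and SLC1A3, a glutamate transporter, 2.0-fold. Of 29 matrix and protease genes MMP7 and ITGA2 rose (6.9%, against 1.04% of all genes) and FN1, which encodes fibronectin, fell (3.45%, against 1.78%). The other 26 did not pass. MMP7, a matrix metalloproteinase, was 0.85 above control and 0.87 below TNF alone (log2 difference -0.87, adjusted p = 0.0209), and its call against control was lost without control 1 (0.84), control 2 (0.77) or TNF plus apigenin 2 (0.77). ITGA2, an integrin gene, rose by 0.77, a call lost in 5 of the 11 fits. FN1 fell by 1.14 on the log2 scale, a call lost without TNF plus apigenin 3 (-1.02, adjusted p = 0.0526). FASN and SREBF1, for fatty acid synthesis and its regulator, fell by 1.07 and 0.82 on the log2 scale among 16 lipid synthesis genes (12.5%, against 1.78% of all genes). Both calls were lost without control 1, control 2, TNF plus apigenin 2 or TNF plus apigenin 3. BCL6, a transcriptional repressor, fell 2.07-fold among 15 FOXO-responsive genes, of which 2 fell (13.3%, against 1.78% of all genes).

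Single genes passed in several further lists. TF, which encodes transferrin, fell by 0.93, PTGES, a prostaglandin E synthase gene, by 0.98 and PDK4, which inhibits pyruvate dehydrogenase, by 0.91 on the log2 scale, with calls lost in 2, 5 and 5 of the 11 fits. ADM, the vasodilator peptide adrenomedullin, rose by 0.94 and GADD45A, a stress and growth arrest gene, by 0.81, with calls lost in 1 and 5. Without TNF plus apigenin 2 TF was at -0.92, PTGES at -0.85, PDK4 at -0.93, ADM at 0.86 and GADD45A at 0.73, none of them past the threshold. Of 16 ribosomal protein genes limma called 0. When p under 0.05 is taken without adjustment, 3 lay above control (18.8%, against 7.15% of all genes) and 0 below (against 8.79%). Of 4 metallothionein genes limma also called 0, with 1 of the 4 above and 0 below control without adjustment.

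Small nucleolar RNAs guide chemical changes of ribosomal RNA. Of 133 snoRNA genes tested 2 fell (1.5%, near the 1.78% of all genes) and 0 rose. The median change was -0.58, and without adjustment of p 40 lay below (30.1%, against 8.79% of all genes) and 5 above control (3.76%, against 7.15%). The median level over the 133 was 5.67, 6.92 and 5.78 on the control arrays and 6.04, 5.13 and 4.99 on the combined arrays. The groups overlapped, and control 2 was the highest of all arrays. SNORD70 fell 3.45-fold, a call lost without control 2 (-1.28, adjusted p = 0.0683), TNF plus apigenin 2 (-1.59, adjusted p = 0.119) or TNF plus apigenin 3 (-1.59, adjusted p = 0.113).

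The 11 SNHG genes, long RNAs whose introns hold snoRNAs, had a median change of 0.43. Their median level was 5.57, 5.60 and 5.55 in control and 5.86, 6.07 and 5.76 with both agents, without overlap. Of these 11 genes 3 were higher at an adjusted p under 0.05 (27.3%, against 1.04% of all genes) and 0 were lower. Without adjustment of p 6 lay above control (54.5%, against 7.15% of all genes) and 1 below (9.09%, near the 8.79% of all genes). SNHG1, SNHG5 and SNHG19 rose, by 0.88 ± 0.22, 0.86 ± 0.19 and 1.11 ± 0.25, in calls lost in 8, 4 and 4 of the 11 fits. Without control 2 they were at 0.75, 0.70 and 1.14, none of them past the threshold.

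**Figure D4:**
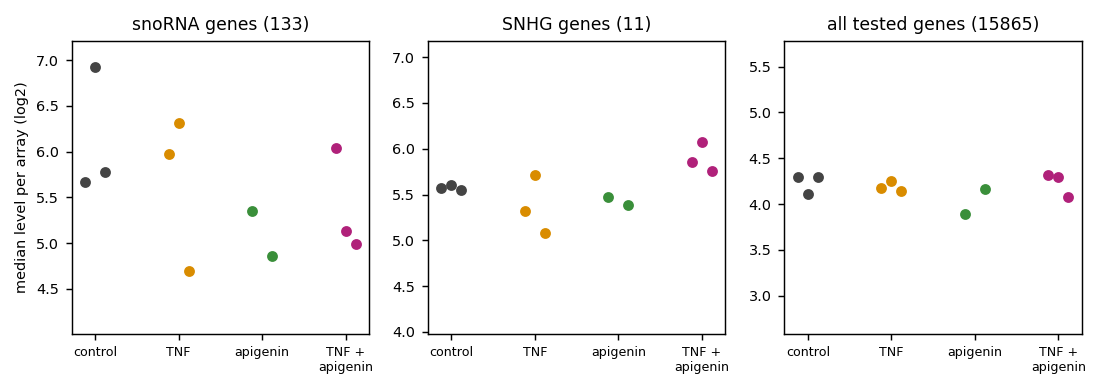
Median level (log2) over the 133 snoRNA genes, the 11 SNHG genes and all 15865 tested genes, 1 point per array for control (3 arrays), TNF (3), apigenin (2) and TNF plus apigenin (3), each panel spanning the same number of log2 units. The snoRNA medians spread widely within groups (4.70 to 6.31 with TNF), the SNHG medians of the 3 combined arrays lie above all others, and the medians of all genes vary little.

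Of 449 microRNA genes tested 4 rose and 0 fell (0.891%, against 1.04% of all genes). MicroRNAs are short RNAs that pair with messenger RNAs mainly through their seed, bases 2 to 8. The mature forms of MIR21 and MIR30C2, chosen after their values were seen, are given from RefSeq (assembly GRCh38.p14), 5′ to 3′ with the seed in capitals, to show that they share no seed. The probe sets carry the gene's name only and do not say which arm or precursor they measured.
miR-21-5p, chr17:59841273-59841294, plus strand: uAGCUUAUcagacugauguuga
miR-30c-5p, chr6:71377003-71377025, minus strand: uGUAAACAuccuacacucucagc
miR-30c-2-3p, chr6:71376964-71376985, minus strand: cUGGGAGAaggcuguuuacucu

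MIR30C2 rose by 1.56 ± 0.25 from 2.93, 2.48 and 3.42 to 4.26, 4.90 and 4.34 (adjusted p = 0.00334) and was called in all 11 fits. MIR21 went from 6.24, 5.76 and 6.21 to 7.33, 7.22 and 6.86, 2.10-fold up (adjusted p = 0.0122). It was at 5.96, 5.95 and 5.78 with TNF and at 5.59 and 6.28 with apigenin, so the combined arrays were the highest, and the differences from TNF and apigenin were 1.24 (adjusted p = 0.00865) and 1.20 (adjusted p = 0.0345). Its call against control was lost without control 2 (0.91, adjusted p = 0.0521), TNF plus apigenin 1 (0.97, adjusted p = 0.0541) or TNF plus apigenin 2 (1.03, adjusted p = 0.0631). MIR378I and MIR197 rose by 1.15 and 1.13, with calls lost in 1 fit (0.97 without TNF plus apigenin 3) and in 7 fits (0.83 without control 2). Among 1078 long non-coding RNA genes 24 rose (2.23%, against 1.04% of all genes) and 5 fell (0.464%, against 1.78%). At an unadjusted p under 0.05, 88 of them lay above control (8.16%, near the 7.15% of all genes) and 34 below (3.15%, against 8.79%). Among 426 genes whose symbol marks an antisense transcript 11 rose (2.58%) and 0 fell. Without adjustment 34 lay above control (7.98%, near the 7.15% of all genes) and 8 below (1.88%, against 8.79%). Among 266 genes named LINC 2 rose (0.752%) and 4 fell (1.5%). For these, 14 lay above (5.26%) and 17 below control (6.39%) without adjustment. The median control level was 2.93 for the long non-coding, 2.96 for the antisense and 2.84 for the LINC genes, against 4.54 for protein-coding genes. These classes thus lay nearer the median of all probe sets. Whether this limited their falls was not tested.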

How the data were processed

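Per the labels' protocols, total RNA of MDA-MB-468 cells was purified with TRIzol and chloroform, labelled with biotin and hybridised to GeneChip Human Gene 2.1 ST arrays. The authors deposited log2 values of 53617 probe sets, and the submitters' processing notes name Expression Console from Affymetrix. For its version, algorithm and genome build the sources used here give nothing, and base 2 is an inference from values that run from 0.38 to 12.31. The number of arrays limits the precision.

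Of the probe sets, 23871 had 1 gene symbol, 1842 several and 27904 none in the platform annotation. For each of 22395 genes the probe set with the highest mean was used, and 22575 of the probe sets matched a RefSeq gene (90 symbols updated). A gene was tested where 2 or more arrays reached 2.53, which is the median over the means of all probe sets. limma 3.58.1 (R 4.3.3, lmFit and eBayes) fitted 4 group means to 11 arrays with 7 residual degrees of freedom, with two-sided tests and Benjamini-Hochberg adjustment over all genes tested. It was tested on simulated data. Errors with ± are SE. Named were the 15 highest and 15 lowest changes, up to 6 called members per list and genes the study is about. The highest and lowest were taken among called genes whose control and combined arrays did not overlap, which held for all 165 higher and 282 lower genes. MicroRNA and SNHG genes, the list members beyond these and the values of genes past no threshold were named after their values were seen. Members and lists were chosen with earlier results of these data known. Alternatives covered normalization, filters, weights, probe sets, the arrays fitted and each array left out.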

Additional observations from a re-analysis of the deposited data

Results flagged for a closer look

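Signal appeared among probe sets that the gene comparisons did not use. Of 13386 tested probe sets without a gene symbol in the annotation, 76 were higher and 31 lower with TNF plus apigenin than in control, by limma over all probe sets (0.799% called). Of 1408 tested probe sets with several gene symbols, 5 were higher and 6 lower (0.781%). In the same fit 75 probe sets with 1 symbol were higher and 137 lower (1.25% of 16901). The groups of 3 arrays were too small for the check on single outlying arrays.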

How the results depend on the processing

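The count of 447 genes called against control was 1233 after quantile normalization, which included all 447, and 1197 with array weights, which included 446. Leaving out 1 array at a time gave 206 to 538. With the 6 arrays compared alone it was 392. Against TNF the count of 169 was 510 after quantile normalization, 391 with array weights and 85 to 197 with an array left out. Against apigenin the count of 91 was 16 with only the arrays compared, 180 after a shift to a common median, 32 with array weights and 18 to 598 with an array left out, so it rested on single arrays, lowest without apigenin 1. With the replicate number as a block 435 genes were called against control, 397 of them among the 447, 174 against TNF and 73 against apigenin. Same-numbered control and combined arrays did not deviate together (correlations of -0.02, -0.24 and 0.02), so the numbers are not taken as pairs. None of the 109 named called genes changed sign in any setting. CYP1B1, not called, ranged from -0.01 (without TNF plus apigenin 2) to 0.16 with an array left out. Of the 109, the call was kept by 93 with the 6 arrays alone, by 99 without a filter on low values and by 71 without TNF plus apigenin 2. The cause of these changes was not tested. The distance to background limits folds of genes near 2.53.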

Other observations

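The genes in this paragraph and the next were picked from the called genes after their values were seen, so they say nothing of other genes of the same pathways. RDH10, which makes retinaldehyde from retinol, went from 7.45, 7.19 and 7.34 in control to 5.76, 5.76 and 5.47 with TNF plus apigenin, a fall of 3.17-fold (limma adjusted p = 0.000119). DHRS3, which turns retinaldehyde back to retinol, fell 1.98-fold, and PLAAT4, a retinoid-inducible gene, 2.85-fold. CRABP2, which carries retinoic acid to its receptor, STRA6, a receptor for the retinol carrier, and RARRES1, a retinoid-responsive gene, fell by 0.80, 0.79 and 0.72 on the log2 scale, in calls that 5 of the 11 fits with 1 array omitted each lost. Of the 4 PLAAT genes tested, for phospholipid acyltransferases, PLAAT2, PLAAT3 and PLAAT4 fell, and the family median was -1.20.

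HSD17B2, which inactivates oestradiol, went from 5.01, 5.20 and 4.68 to 3.35, 3.27 and 3.27, 3.18-fold down (limma adjusted p = 0.000119). STS, which frees steroids from their sulphates, fell 2.78-fold, and SULT2B1, which adds sulphate to sterols, 2.82-fold. KIT, a receptor kinase gene, fell by 1.53 on the log2 scale, and P2RY6, another nucleotide receptor, 2.41-fold. Higher genes outside the lists included EDN1, which encodes endothelin 1 (2.71-fold), F3, the tissue factor gene that starts coagulation (2.69-fold), SGPP2, a sphingosine phosphate phosphatase gene (3.10-fold), EGOT, a long non-coding RNA gene (3.29-fold), and FRZB, a secreted antagonist of WNT signalling, at 1.76, 1.72 and 1.67 in control and at 3.32, 3.84 and 3.13 in the combination. EGOT and FRZB also exceeded TNF alone, by 1.06 and 1.69 (adjusted p = 0.0288 and 0.000561), and apigenin alone, by 1.56 and 1.12 (adjusted p = 0.00841 and 0.0309).

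Of 399 zinc finger genes named ZNF with a number, 8 were called higher (2.01%, against 1.04% of all genes) and 4 lower (1.0%, against 1.78%). Their median change was 0.19, and 0.12 without TNF plus apigenin 2. Without adjustment of p 84 lay above control (21.1%, against 7.15% of all genes) and 16 below (4.01%, against 8.79%). The median levels of the 399 overlapped between the groups, at 4.20, 3.97 and 4.22 in control and 4.40, 4.52 and 4.19 in the combination. The class was not tested as such.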
